A study of Homo sapiens with 6 samples.

Results

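Small Cajal body-specific RNAs (scaRNAs) were examined in K562 cells that over-express RUNX1. The members were the 10 entries SCARNA2, SCARNA5, SCARNA6, SCARNA7, SCARNA8, SCARNA9, SCARNA10, SCARNA12, SCARNA13 and SCARNA17, chosen by name among the 28846 small RNAs counted in each sample. K562 is an established human leukemia line with erythroid features. Control cells received the empty lentiviral vector SIEW, which expresses GFP only. RUNX1 cells received SIEW RUNX1, which expresses human RUNX1 and GFP. Each condition was transduced in 3 independent replicates and kept for 10 days in culture. The total counts ranged from 1618248 in control replicate 1 to 15245007 in RUNX1 replicate 1, and the 10 scaRNAs together had 2581 to 10288 counts per sample. RUNX1 itself is not among the counted small RNAs, so its level was not measured here. The erythroid microRNA miR-451a was detected in all 6 samples, with levels in CPM (counts scaled to the TMM-adjusted library size). It had 2705 to 3158 CPM in control and 1312 to 1863 CPM with RUNX1. The erythroid miR-144-5p and miR-486-5p were also lower in all RUNX1 samples. In contrast, miR-144-3p was higher, with 225.4 to 252.2 CPM against 110.7 to 136.3 CPM in control.

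The scaRNAs are guide RNAs of the Cajal body, a nuclear compartment in which spliceosomal small nuclear RNAs (snRNAs) are modified. Box C/D guides pair with an snRNA and direct a methyl group to the ribose of the paired base, while box H/ACA guides direct the change of uridine to pseudouridine. Mixed scaRNAs carry both kinds of domain. Retention of the H/ACA type in the Cajal body is known to depend on a short CAB box. Among the members, SCARNA2, SCARNA7, SCARNA9 and SCARNA17 are box C/D guides, SCARNA8 and SCARNA13 are box H/ACA guides and SCARNA5, SCARNA6, SCARNA10 and SCARNA12 are mixed. By target, SCARNA2, SCARNA8, SCARNA9 and SCARNA13 are known as guides of U2, the snRNA that pairs with the branch site. SCARNA5, SCARNA6, SCARNA10, SCARNA12 and, with its second domain, SCARNA13 are known as guides of U5, which holds the exons in the spliceosome. SCARNA7 guides U1, which recognises the splice donor, and SCARNA17 guides U4 and the minor spliceosomal U12.

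To show what these guides are, the stretches of the C/D and mixed members that could pair with an snRNA were read from the GENCODE 29 transcripts. The letters CTGA of box D were searched on the transcript strand. The base 5 positions before them had to lie in an uninterrupted complement of at least 8 letters to RNU1-1, RNU2-1, RNU4-1, RNU5A-1, RNU12 or RNU6-1. Such a match was found in 4 of the 8 members searched, and in 9.26% of the 1004 snoRNA and scaRNA transcripts of GENCODE 29, which differ in length. The following windows of 30 bases or fewer carry the complement and CTGA in capitals, written 5′ to 3′. 
SCARNA7, opposite position 70 of RNU1-1: tgatgctgatattGGAGTGCAtCTGAggct
SCARNA9, opposite position 19 of RNU2-1: tcaatgatgaaacTAGCCAAAtCTGAgcat
SCARNA9, opposite position 30 of RNU2-1: tatgatggtttCTACACTTGAcCTGAgctc
SCARNA5, opposite position 41 of RNU5A-1: tcgatgatgattgGTAAAAGGtCTGAttgc
SCARNA6, opposite position 41 of RNU5A-1: tcaatgatgaatgGTAAAAGGtCTGAgtcc
SCARNA5 and SCARNA6 thus had the same 8 complementary letters opposite the same U5 position. SCARNA5 also had 11 letters complementary to RNU4-1 opposite position 65, beside its last CTGA. SCARNA2, SCARNA10, SCARNA12 and SCARNA17 had no such match in these letters.

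SCARNA8 and RF00493, a short entry at the end of SCARNA9, are shown in full, because SCARNA8 and SCARNA9 had the largest falls. SCARNA8 is 131 bases long, and capitals mark the CAB box letters TGAG and the letters ACA that lie 3 bases before the end.
SCARNA8: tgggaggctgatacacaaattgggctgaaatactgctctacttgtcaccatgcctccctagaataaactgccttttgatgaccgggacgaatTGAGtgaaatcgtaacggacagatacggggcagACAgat
Of the 10 members, SCARNA8 and SCARNA13 had both features, as did 12.5% of the 1004 transcripts. The letters TGAG alone occurred in all 10 members and in 63% of the transcripts, so they do not set these members apart. Their place in the folded RNA was not examined. SCARNA9 is 353 bases long, and GENCODE lists 2 shorter entries there. RF00494 (80 bases) lies within it, while RF00493 (70 bases) ends at 93721866, 1 base past the end of SCARNA9. In the following sequence of RF00493, capitals mark box C (TGATGA), the complement to U2 and box D (CTGA).
RF00493: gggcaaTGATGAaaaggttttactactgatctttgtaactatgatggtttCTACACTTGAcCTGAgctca

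In GENCODE 29 on GRCh38, SCARNA8 lies on chromosome 9 from 19063656 to 19063786 on the minus strand, in an intron of HAUS6. SCARNA7 lies on chromosome 3 from 160514907 to 160515236 on the minus strand, in an intron of KPNA4. SCARNA9 lies on chromosome 11 from 93721513 to 93721865 on the plus strand, in an intron of CEP295, and further entries named RF00493 and RF00494 lie on chromosome X, with others named RF00494 on chromosomes 4 and 7. SCARNA2, on chromosome 1 from 109100193 to 109100612 on the plus strand, overlaps an exon of the lincRNA AL356488.2. SCARNA5 (233275727 to 233276002) and SCARNA6 (233288676 to 233288940) lie on chromosome 2 on the plus strand in introns of the same gene, ATG16L1. SCARNA10 is intronic in NCAPD2, SCARNA13 is intronic in SNHG10 and lies opposite an exon of GLRX5, SCARNA12 overlaps an exon of PHB2 and SCARNA17 an exon of SNHG22. The count files give names without positions, and the files were made on hg19. In the study's list of altered small RNAs, the entries named SCARNA6 and SCARNA17 are placed on other chromosomes than in GENCODE, and the entry SCARNA9 is as short as RF00493. The counts of these 3 entries may therefore belong to another copy or to a part of the RNA.

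To determine which scaRNAs changed upon RUNX1 over-expression, a single edgeR quasi-likelihood fit covered the 947 small RNAs with enough counts, 9 of the 10 scaRNAs among them. A small RNA was called altered at P below 0.05 with a log2 fold change at or beyond 0.5 in either direction, as the study did. Adjusted p-values are by Benjamini-Hochberg over all 947. Of the 9, SCARNA7 and SCARNA10 were up-regulated, SCARNA2, SCARNA6, SCARNA8 and SCARNA9 were down-regulated and SCARNA5, SCARNA12 and SCARNA13 did not pass. The same rule called 57.6% of all tested small RNAs, 28% up and 29.6% down, so the share of altered scaRNAs was near that of small RNAs in general. This split depended on the scaling: with library size only, 120 of the 947 were up-regulated and 521 down-regulated, and of the 9 scaRNAs 1 and 6. With adjusted p in place of P the same 6 passed, compared with 54.6% of all tested small RNAs. The median log2 fold change was -0.25 over the 9 scaRNAs and -0.06 over all 947. The values spread from -4.80 to 2.25. The conditions did not overlap in 6 of the 9, compared with 64.8% of all tested small RNAs. MicroRNAs took 81.8% ± 0.396 of the counts in control against 90.9% ± 1.23 with RUNX1, and rRNA entries 6.16% ± 0.282 and 2.26% ± 0.608 (n = 3 each, ± SD). Their part in the scaRNA changes was not tested. Fewer cells with a scaRNA and less of it per cell cannot be told apart in bulk RNA. The scaRNAs are longer than the reads of 51 bp, so each count is a fragment, and fragments may not track the full-length RNA.

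Of the 4 guides of U2, 3 were down-regulated and 1 was not altered, where 29.6% of all tested small RNAs were down-regulated. With library size only, all 4 were down-regulated, as were 521 of the 947. SCARNA8, an H/ACA guide, had 227, 1024 and 772 counts in control against 37, 19 and 41 counts with RUNX1. In CPM these were 108.6, 127.1 and 101.7 in control against 3.21, 3.04 and 5.98 with RUNX1. The highest RUNX1 sample was thus far below the lowest control sample. SCARNA8 stood lowest of the 207 tested snoRNAs and scaRNAs and at place 4 from the bottom of all 947 small RNAs, and the fitted fall was 27.9-fold, with a 95% interval of the log2 fold change from -5.38 to -4.22. Across all 16 alternatives the log2 fold change lay between -5.49 and -4.61.

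The GENCODE transcript of SCARNA9, a C/D guide, holds 2 U2 complements. RF00493, as short as the study's entry SCARNA9, holds only that opposite position 30 of RNU2-1. The entry SCARNA9 had 231, 204.9 and 166.6 CPM in control against 47.8, 39.2 and 37.7 CPM with RUNX1. All RUNX1 samples lay below all control samples. The log2 fold change was -2.27 (standard error, SE, 0.17, adjusted p = 7.02e-06 by edgeR), a 4.81-fold fall. It was -2.98 with library size only. SCARNA2, a C/D guide and the most abundant member by counts, had 518.4, 584 and 558.7 CPM in control against 367.9, 320 and 356.4 CPM with RUNX1. The conditions did not overlap, and the log2 fold change of SCARNA2 was -0.67 (SE 0.12, adjusted p = 0.00144 by edgeR) and -1.37 with library size only. SCARNA13, an H/ACA guide with domains for U2 and U5, had 50.7, 50.1 and 57.3 CPM in control against 54.1, 47 and 61.9 CPM with RUNX1. These ranges overlapped, and the log2 fold change of 0.04 had a 95% interval from -0.30 to 0.38. Its sign turned with the scaling, with -0.65 under library size only and -0.15 under TMM factors from microRNAs.

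SCARNA7, the guide of U1, went the other way. It had 18, 85 and 61 counts in control against 548, 279 and 261 counts with RUNX1, or 8.61, 10.6 and 8.03 CPM and 47.5, 44.6 and 38.1 CPM. The lowest RUNX1 sample was above every control sample. The log2 fold change was 2.25 (SE 0.18, adjusted p = 1.05e-05 by edgeR), a 4.74-fold rise. It was the place 7 rise among the 207 tested snoRNAs and scaRNAs. Under library size only the log2 fold change of SCARNA7 was 1.54.

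Of the 5 guides of U5, SCARNA13 included, 1 was up-regulated, 1 was down-regulated and 3 were not altered. Of all tested small RNAs, 28% were up-regulated and 29.6% down-regulated. With library size only, none of the 5 was up-regulated and 3 were down-regulated, compared with 120 and 521 of the 947 small RNAs. SCARNA10 had 33, 25.8 and 22.8 CPM in control against 49.7, 62.4 and 33 CPM with RUNX1. RUNX1 replicate 3 thus met control replicate 1, so that the conditions overlapped. The log2 fold change of SCARNA10 was 0.86 (SE 0.24, adjusted p = 0.0137 by edgeR). It was 0.13 with library size only, where SCARNA10 was no longer altered. SCARNA6 had 86.1, 73.6 and 76.1 CPM in control against 43.3, 39 and 60.7 CPM with RUNX1. The conditions did not overlap, and the log2 fold change of SCARNA6 was -0.72 (SE 0.18, adjusted p = 0.00804 by edgeR) and -1.40 with library size only.

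SCARNA5 had 111, 115.9 and 127.7 CPM in control against 133.9, 138.2 and 151.1 CPM with RUNX1. Although the samples did not overlap, the log2 fold change of 0.25 (SE 0.13, adjusted p = 0.119 by edgeR) did not pass either threshold, and it was -0.44 with library size only. SCARNA12 had 87, 84.8 and 80.9 CPM in control against 83.7, 68.6 and 59.1 CPM with RUNX1. These ranges overlapped and the log2 fold change was -0.25, with a 95% interval from -0.60 to 0.10. With library size only SCARNA12 was down-regulated, with -0.96. Rises and falls of this size thus depended on the scaling, which shifted the median of all tested small RNAs to -0.76 when library size only was used.

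**Figure D1:**
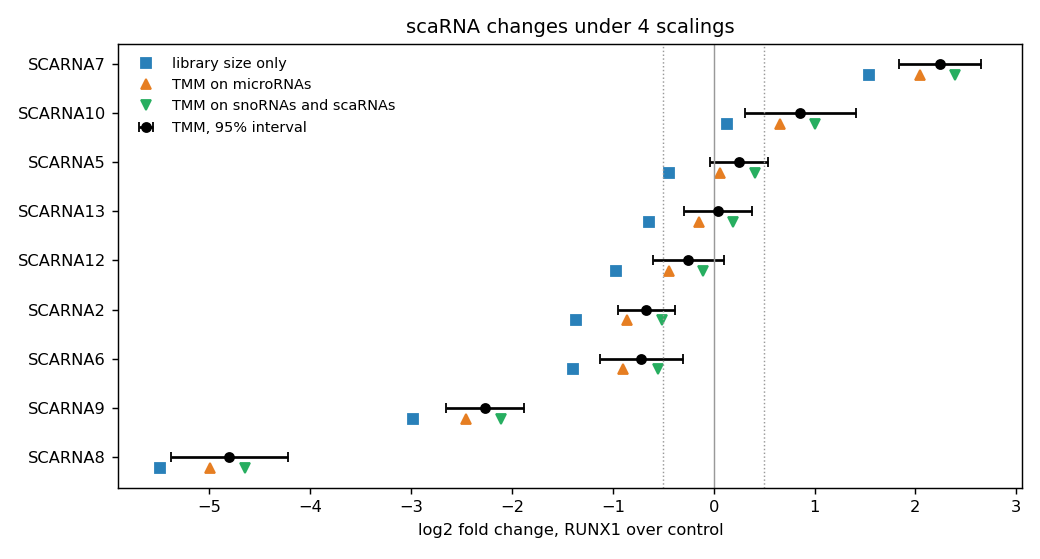
Log2 fold change of RUNX1 over control for the 9 tested scaRNAs, with the TMM estimate and its 95% interval in black and the estimates under 3 other scalings in colour. Dotted lines mark 0.5 in both directions. The estimates of SCARNA2, SCARNA6, SCARNA7, SCARNA8 and SCARNA9 lay beyond them under all 4 scalings. Those of SCARNA2 and SCARNA6 came close to the line, at -0.52 and -0.56 under TMM factors from snoRNAs and scaRNAs. The estimates of SCARNA5 and SCARNA13 changed sign.

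SCARNA17, a guide of U4 and U12, was hardly detected. It had 0, 0 and 2 counts in control against 10, 3 and 8 counts with RUNX1 and failed the filter on low counts. Both fits without that filter called SCARNA17 up-regulated, with an adjusted p of 0.0171 by edgeR and 0.0964 by DESeq2. The floor of 3 counts was 1.43 CPM in control replicate 1 and 0.372 CPM in control replicate 2. The ratio of the pooled rates of SCARNA17, RUNX1 to control, was 7.56, with an exact 95% interval from 1.85 to 66.5 that covers counting error only.

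Changes between members of 1 sample need no scaling between libraries. The log2 ratio of each member to SCARNA2 was therefore compared by two-sided exact permutation tests, in which 3 samples against 3 cannot give a p below 0.1. The log2 ratio of SCARNA8 to SCARNA2 was -2.30 ± 0.14 in control against -6.46 ± 0.51 with RUNX1 (n = 3 each, ± SD; exact permutation test, p = 0.1, and 0.129 after adjustment over 9 ratios). SCARNA9 fell relative to SCARNA2 by 1.6 on the log2 scale. SCARNA7 had a log2 ratio to SCARNA2 of -5.92 ± 0.17 in control against -3 ± 0.198 with RUNX1 (n = 3 each, ± SD). The ratios of SCARNA5, SCARNA10 and SCARNA13 to SCARNA2 were higher in all RUNX1 samples than in all control samples, by 0.93, 1.47 and 0.71 on the log2 scale (exact permutation test, p = 0.1 each). SCARNA2 itself was down-regulated, with -0.67, so these differences include its fall. The CPM of SCARNA13 and SCARNA5 differed by only 0.04 and 0.25 on the log2 scale. The ratio of SCARNA17 to SCARNA2 was also higher in all RUNX1 samples, by 3.01 (exact permutation test, p = 0.1), but rests on 0, 0 and 2 counts in control with 0.5 added. For SCARNA12 the samples overlapped (exact permutation test, p = 0.2). For SCARNA6 the samples also overlapped, with log2 ratios to SCARNA2 of -2.82 ± 0.21 in control against -2.89 ± 0.29 with RUNX1 (n = 3 each, ± SD; exact permutation test, p = 0.6).

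SCARNA6 and SCARNA5, with the same letters opposite U5 in GENCODE, were also set against each other, a pair chosen after the values were seen. The log2 ratio of SCARNA6 to SCARNA5 was -0.365, -0.655 and -0.746 in control against -1.63, -1.82 and -1.31 with RUNX1. The difference was -0.999, and the samples did not overlap. Since the choice of the pair followed the values, a test of it carries no weight. Whether this compares neighbours in ATG16L1, or RNAs with the same letters opposite U5, depends on which copy the entry SCARNA6 stands for.

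Together the 10 scaRNAs took 0.158% ± 0.0101 of all counts in control against 0.0629% ± 0.00681 with RUNX1 (n = 3 each, ± SD), a ratio of 2.51 between the conditions. Among the counts that were not microRNAs, the shares were 0.869% ± 0.0423 and 0.692% ± 0.0703 (n = 3 each, ± SD), a ratio of 1.25. In summed CPM the ratio was 1.55. Within the family, SCARNA2 held 44.8% ± 2.43 of the counts in control against 43.5% ± 1.32 with RUNX1. SCARNA9 went from 16.2% ± 2.42 to 5.19% ± 0.535 and SCARNA8 from 9.07% ± 0.779 to 0.509% ± 0.203. SCARNA5 went from 9.57% ± 0.931 to 17.7% ± 1.40 and SCARNA7 from 0.731% ± 0.0836 to 5.43% ± 0.611 (n = 3 each, ± SD). Shares within a family add up to a fixed sum, so a lower share of one member raises those of the others.

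**Figure D2:**
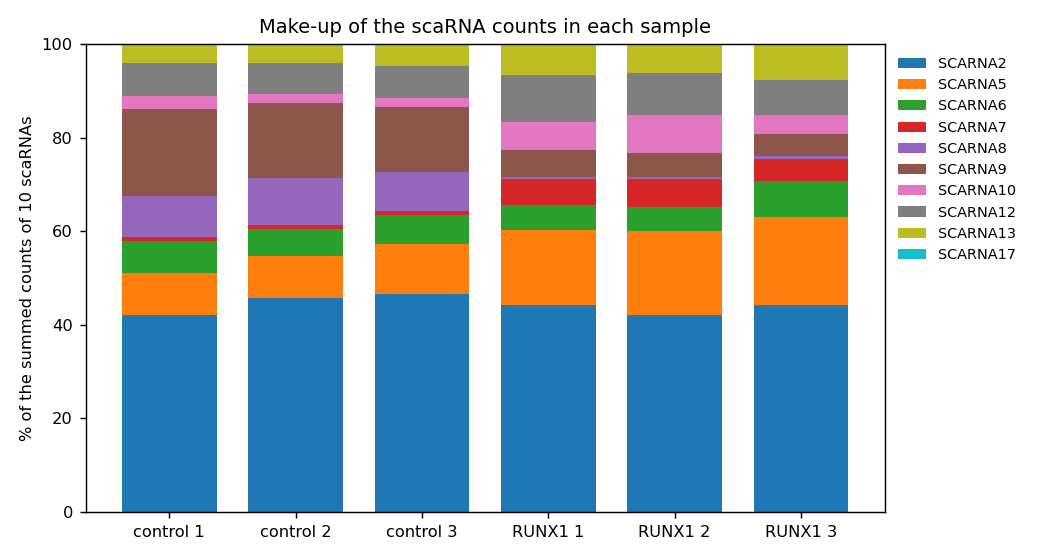
Share of each scaRNA in the summed counts of the 10 scaRNAs, in percent, with 1 stacked bar per sample. SCARNA2 held between 42% and 46.6% in every sample, while the SCARNA8 and SCARNA9 bands were smaller and the SCARNA5 and SCARNA7 bands larger in the RUNX1 samples.

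Counts of different scaRNAs were compared per length, as CPM per kilobase of the GENCODE transcript. Each count is a fragment, and the number of fragments need not grow with the length of the RNA. The order by this measure may therefore differ from the order of the RNA levels. SCARNA6, SCARNA9 and SCARNA17 were left out, since the counted locus is uncertain. In control the order was SCARNA2 with 1318 ± 78.8, SCARNA8 with 859 ± 100.3, SCARNA5 with 428 ± 31.1, SCARNA12 with 312 ± 11.6, SCARNA13 with 192 ± 14.5, SCARNA10 with 82.4 ± 15.9 and SCARNA7 with 27.5 ± 4.0 CPM per kilobase (n = 3 each, ± SD). No neighbours in this order overlapped. In RUNX1 samples SCARNA2 stayed first with 829 ± 59.5 and SCARNA5 was next with 511 ± 32.4 CPM per kilobase. SCARNA12, SCARNA13, SCARNA10 and SCARNA7 followed in this order, and neighbours among these overlapped. SCARNA8 was last with 31.1 ± 12.6 CPM per kilobase and did not overlap with SCARNA7, at 132 ± 14.7.

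**Figure D3:**
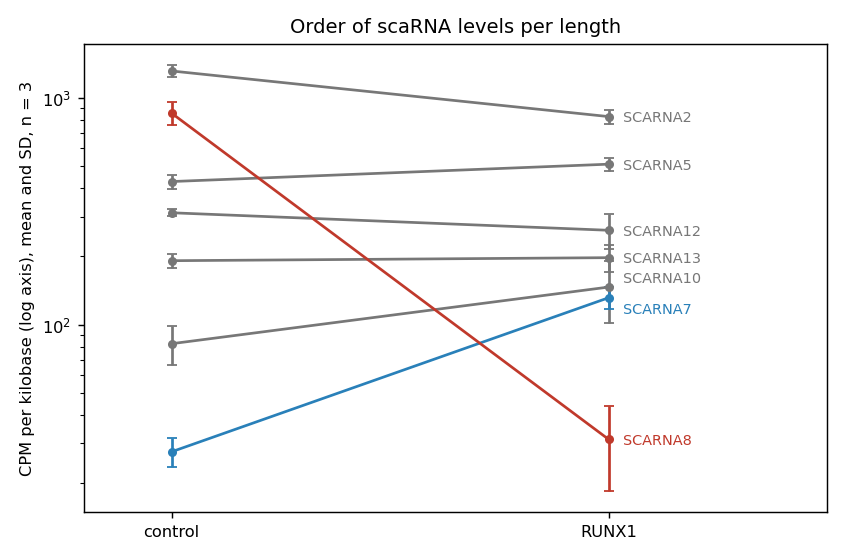
Mean CPM per kilobase of 7 scaRNAs in control and RUNX1 samples on a log axis, with the SD of 3 samples as error bars. SCARNA8 (red) passed from place 2 to place 7, and SCARNA7 (blue) from place 7 to place 6.

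The other 12 SCARNA entries were viewed beside the 10 members. Of these, 8 were tested, with 2 up-regulated, 3 down-regulated and 3 not altered, and a median log2 fold change of -0.34. SCARNA3 had the largest rise of them, at 1.79 on the log2 scale (SE 0.19), and SCARNA20 the largest fall, at -1.55 (SE 0.33). Of 74 tested H/ACA snoRNAs, 21 were up-regulated and 25 down-regulated, and of 116 tested C/D snoRNAs, 32 and 34. Their median log2 fold changes were -0.24 and -0.12. With library size only, 1 of the other scaRNAs was up-regulated and 6 down-regulated, compared with 9 and 42 of the H/ACA snoRNAs and 16 and 70 of the C/D snoRNAs. SCARNA8 lay below the lowest H/ACA snoRNA, SNORA41, which had -3.75 under TMM.

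**Figure D4:**
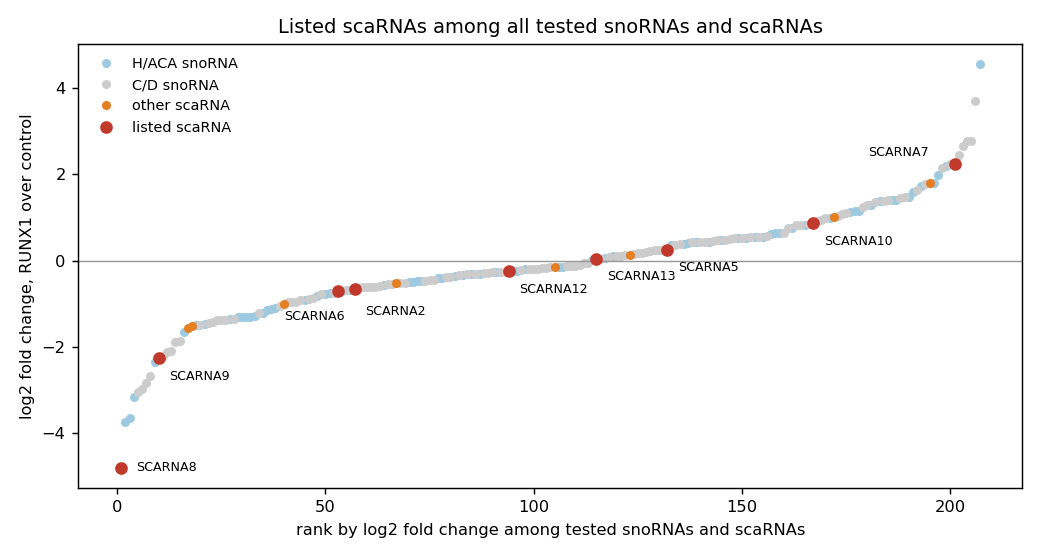
Log2 fold change of RUNX1 over control for the 207 tested snoRNAs and scaRNAs, ordered by value, with the 9 tested members in red. SCARNA8 holds the lowest place and SCARNA9 place 10 from the bottom, SCARNA7 holds place 7 from the top, and the others lie between them.

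Of the entries named after U1, U2 and U5, target snRNAs of these scaRNAs, most were down-regulated, compared with 29.6% of all tested small RNAs. The tested U1 entries were all named as variants (RNVU1) or with a final P, and the tested U2 entries all with a final P. RNU1-1 and RNU2-1, used above to search for guides, were not among the tested entries, so the values are not their levels. Of 12 tested U1 entries, 9 were down-regulated and none up-regulated, with a median log2 fold change of -2.05. Of 6 U2 entries, 4 were down-regulated and 1 up-regulated, with a median of -1.12, and of 8 U5 entries, 6 were down-regulated and none up-regulated, with a median of -1.47. Neither of the 2 tested U4 entries was altered, and the single tested U12 entry was up-regulated, at 0.90 on the log2 scale. Among the entries not altered were RNU2-2P, at 0.51, and RNU5A-1, at -0.30. The summed shares of the U2 and U12 entries in all counts overlapped between the conditions. Those of the U1, U4 and U5 entries were lower in all RUNX1 samples, for U4 with 0.00272% to 0.00493% against 0.00499% to 0.00678% in control. With library size only, 10 U1, 4 U2 and all 8 U5 entries were down-regulated, compared with 521 of the 947 small RNAs. The U12 entry was then no longer altered and the U4 median turned from 0.29 to -0.44. Many of these snRNA entries are near-identical copies and pseudogenes, so the single counts are uncertain, and the modification of the snRNAs was not measured.

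Finally, the small RNAs with profiles most like those of the members with the largest rise and the largest fall were looked up by the Euclidean distance of centred log2 CPM over the 6 samples. Nearest to SCARNA7 were SNORD19B with a distance of 0.282, miR-628-5p with 0.374 and miR-29a-3p with 0.379. SNORD19B had 106.9 CPM in control against 501.7 CPM with RUNX1. Nearest to SCARNA8 were the microRNA entry miR-4449 with a distance of 0.458, the U1 entry RNU1-16P with 0.897 and the 5S entry RNA5SP303 with 0.945. RNU1-16P had 18.31 CPM in control against 0.18 CPM with RUNX1. The latter mean is below the floor of 3 counts, 0.26 to 0.48 CPM in the RUNX1 samples, so its place here is uncertain. In 6 samples of 2 conditions the Euclidean distance mainly reads the size of the change between the conditions.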

How the data were processed

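Libraries were made from 1000 ng of total RNA with the TruSeq Small RNA kit and read as single reads of 51 bp. Per the labels, CASAVA 1.8.2 and the build hg19 were used. The authors counted reads on annotated small RNAs with the OASIS platform and deposited whole-number counts without normalization. The treatment of reads with several matches is not given in the sources used here. The 5 rows that name no small RNA were left out and held 0 counts. Groups and replicate numbers came from the sample titles. The library names of the conditions carry different letters. Were these separate preparations, the conditions could not be told apart from them.

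The whole table was filtered with filterByExpr (minimum count 10, minimum total count 15), TMM-scaled and fitted with glmQLFit and glmQLFTest (edgeR 4.0.16, R 4.3.3) on condition alone. Each SE was derived from the log2 fold change and its F statistic. P-values rest on the spread between 3 transductions per condition. The fit draws the spread of each small RNA toward that of all tested ones (9.03 degrees of freedom for each tested scaRNA). Replicates varied beyond sampling noise, with chi-square to degrees of freedom ratios of 9.62 to 451. Those of RUNX1 replicate 3 with the other RUNX1 samples were 314 and 451, against 56.3 between RUNX1 replicates 1 and 2. Within-sample log2 ratios had 0.5 added to both counts. Floors and count intervals cover counting error only. Alternatives were DESeq2 1.42.0, other scalings, filters and thresholds, the replicate block and each sample left out. The fits were tested on simulated data. The members, lists and guide types were chosen with earlier results of these data known. All 10 members are named, with the 3 profiles nearest to the largest rise and fall. Transcripts and positions are from GENCODE 29 on GRCh38, with 10 of 10 members matched by name.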

Additional observations from a re-analysis of the deposited data

How the results depend on the processing

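The 6 altered scaRNAs became 3, with 1 up-regulated and 2 down-regulated, when an adjusted P-value and a log2 fold change of 1 were required. With library size only, 1 member was up-regulated and 6 were down-regulated. SCARNA5 and SCARNA13 then reversed, to -0.44 and -0.65. SCARNA13 also reversed with TMM on microRNAs, to -0.15, and without control replicate 2, to -0.002962, with a high of 0.18 when 1 sample was left out. The ratio of SCARNA6 to SCARNA2 ranged from -0.243 to 0.041 and was also reversed without RUNX1 replicate 1, at 0.0242. The difference of the summed share was -0.0951 percentage points of all counts and -0.176 of the counts without microRNAs. As ratios of control to RUNX1 these were 2.51 and 1.25, so the relative fall was smaller without microRNAs. SCARNA7, SCARNA8 and SCARNA9 were altered in the same direction under all 16 alternatives. With the replicate number as a block, 6 members were altered and 546 small RNAs in all. Samples with the same number in their titles had correlations of their deviations from -0.0904 to 0.0178. The highest of all 9 pairs was 0.0874, for control replicate 1 and RUNX1 replicate 2. The library names of RUNX1 replicates 1 and 2 carry the same number, 2, so this numbering is in doubt, and the block is given for the titles' numbers only. Summing SCARNA9 with a copy could not be run, since the table holds 1 such entry. RUNX1 replicate 3 differed most from the samples of its condition. Without it, 612 of 969 small RNAs and the same 6 members were altered, with SCARNA10 at 1.18 and SCARNA12 at -0.04. Control replicate 1 had the fewest counts and the highest floor. The depth limits SCARNA17. It was up-regulated without a count filter and with DESeq2, which brought the altered members to 7, with 3 up-regulated.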
